A study of Mus musculus with 39 samples.

Results

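The skin of old Prf1-/- mice given ABT-737 was compared with that of old Prf1-/- mice given vehicle, in 6 libraries of 9 from skin and 39 in the series. The 3 ABT-737-treated mice (replicates 3, 4 and 5) were set against the 3 vehicle-treated mice with the same replicate numbers, and 3 young libraries were kept in the fit and are given for reference. All mice were of the C57BL/6 strain and lacked perforin, and the study describes the treated mice as male, while the labels give no sex. The old mice had 2 monthly rounds of treatment from 18 months of age, each of 2 daily doses, with either ABT-737 at 25 mg/kg or a DMSO-based vehicle. Their skin was collected at 20 months, after perfusion. The young mice were 3 months old and untreated. Replicates 4 and 5 of the drug group carry the treatment labels ABT-738 and ABT-739, and both were counted as ABT-737. Of the 52508 genes listed, 14224 had enough reads to be tested. Values are given as CPM, reads scaled to a common library size, each from 1 mouse, and differences as log2 fold changes of ABT-737 over vehicle with their standard errors.

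ABT-737 binds the anti-apoptotic proteins BCL-2, BCL-XL and BCL-W and releases the death effectors that they hold, and cells that lean on these proteins, among them senescent cells, platelets and lymphocytes, are known to be sensitive to it. Perforin is the pore-forming protein of cytotoxic lymphocytes. Mouse skin holds epidermis, hair follicles, a dermis of fibroblasts and vessels, a fat layer and a thin muscle sheet, and its follicles pass through growth, regression and rest, with hair keratins made only in the growth phase. A bulk library adds all of these up, so that fewer cells of a type and less RNA per cell of that type cannot be told apart.

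Prf1 itself was counted in all 6 libraries of old skin. It stood at 18.9, 36.3 and 46.6 CPM in vehicle mice 3, 4 and 5 and at 18.9, 16.1 and 19.2 CPM in ABT-737 mice 3, 4 and 5. All groups carry the same knockout of Prf1, and whether the counted 3′ end lies outside the altered part was not tested, so these values do not check the genotype.

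The composition of the skin differed greatly between mice of the same group. The summed counts of 87 hair follicle genes made up 2.44%, 0.055% and 0.234% of the library in vehicle mice 3, 4 and 5, and 0.0695%, 6.37% and 6.64% in ABT-737 mice 3, 4 and 5. Vehicle mouse 3 and ABT-737 mice 4 and 5 were thus high and the other 3 mice low, so the groups overlapped. Skeletal muscle genes took 6.12%, 7.33% and 1.79% in the vehicle mice and 9.02%, 3.1% and 2.74% in the ABT-737 mice, also with overlap. Adipocyte genes took 0.223%, 0.584% and 0.164% against 0.98%, 0.293% and 0.267%. Fibroblast genes took 0.936%, 0.733% and 1.69% against 1.58%, 0.493% and 1.18%. Pan-leukocyte genes behaved otherwise, with 0.136%, 0.212% and 0.326% in the vehicle mice against 0.0943%, 0.0483% and 0.103% in the ABT-737 mice. Each ABT-737 mouse was below each vehicle mouse for this list. Across the 14224 tested genes, which are not independent replicates, Pearson's r of log2 CPM was 0.957 between ABT-737 mouse 3 and vehicle mouse 4, 0.959 between ABT-737 mice 4 and 5, and 0.776 between ABT-737 mouse 4 and vehicle mouse 4.

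**Figure D1:**
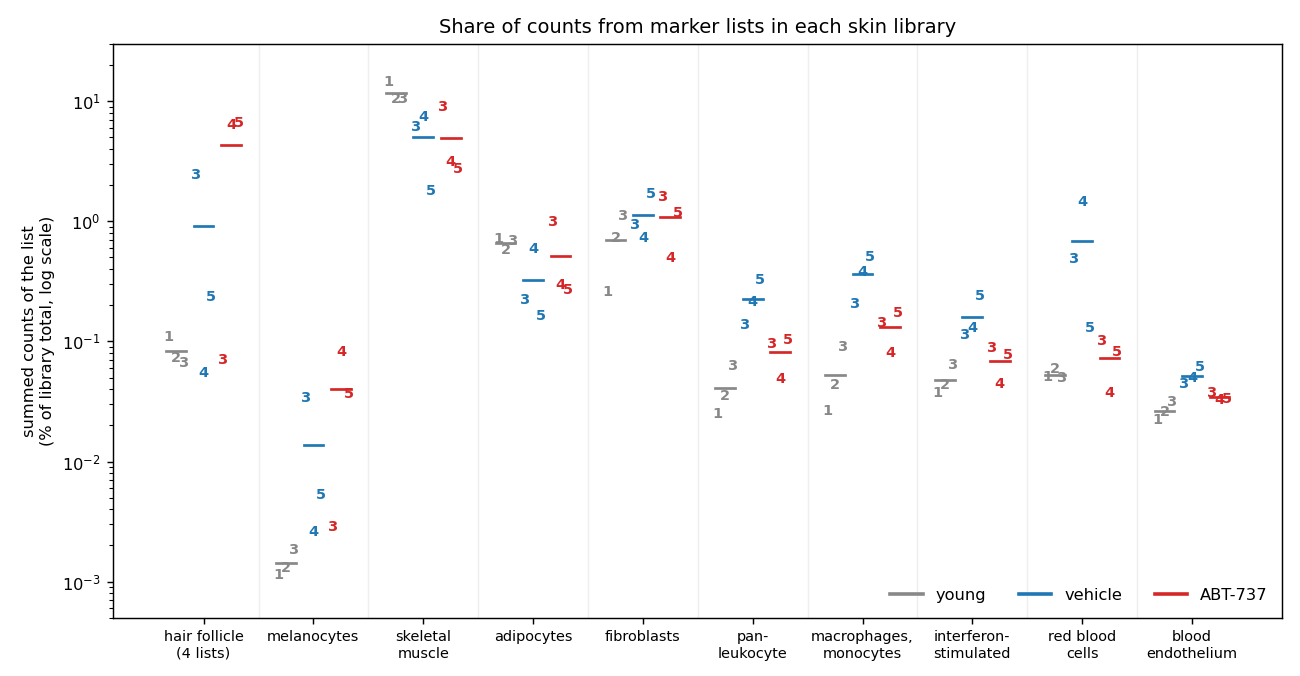
Summed counts of marker gene lists as a percent of all counts in each of the 9 skin libraries, on a log axis. Digits are replicate numbers, bars are group means, and grey, blue and red mark young, vehicle and ABT-737 mice. Hair follicle shares span 0.055% to 6.64% with the groups mixed, whereas each ABT-737 mouse is below each vehicle mouse for leukocyte, macrophage, interferon-stimulated, red cell and endothelial genes.

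Some libraries stood apart in other ways. Vehicle mouse 5 held 6230.1 CPM of Krt6b and 4126 CPM of Krt16, keratins of wounded or thickened epidermis, where the other 5 old mice had at most 39.2 and 66.4 CPM. It held 1011 CPM of the acute phase gene Saa3 against at most 18.0 CPM in the other 5. In all, 65 genes with at least 20 reads there were at least 4 times higher in vehicle mouse 5 than in each of the other 5 old mice, against 0 to 9 such genes for each of the others. Vehicle mouse 4 held the hormone genes of the pancreatic islet, with 5496 reads of Ins2, 659 of Ins1, 412 of Iapp, 221 of Gcg and 100 of Sst. Every skin library had reads of Ins2, with 518 to 1452 in the other 5 old mice. The lung gene Sftpc had 176 reads in ABT-737 mouse 4 and 0 to 4 in the other 5, and the kidney gene Umod had 30, 6 and 15 reads in ABT-737 mice 3, 4 and 5 and 0 in each vehicle mouse. These genes were chosen after their values were seen, and the part of carry-over between tissues in other results was not tested.

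No gene passed the test between ABT-737 and vehicle. With edgeR's quasi-likelihood test and Benjamini-Hochberg adjustment, 0 of 14224 genes (0%) had an adjusted p under 0.05, and the smallest adjusted p was 0.475. At an unadjusted p under 0.05 there were 1134 genes (7.97% of those tested, where 711 would be expected by chance). Of these, 484 were higher (3.4% of those tested) and 650 lower (4.57%) in ABT-737 mice. DESeq2 called 60 genes, 6 higher and 54 lower, among them Ube2l6, Ly9, Sln, Hba-a1, Ccl5, Isg15, Bst2 and, on the higher side, Chac1 and Ints6l. Without the filter on low counts edgeR called 32 of 29019 genes, 25 of them also called by DESeq2, and of the 9 genes just named only Ints6l was not among the 32. The 32 included the kidney gene Umod and AU018091, both with 0 reads in each vehicle mouse. They also included Slpi, Mir7678, Serpinb12 and Prg4, which were by far highest in vehicle mouse 5. Groups that did not overlap were found for 817 genes higher (5.74%) and 826 genes lower (5.81%) with ABT-737. These shares are the reference for every count of list members below. The fold changes below are therefore descriptions of these 6 mice, and a gene is called higher or lower without having passed the adjusted threshold. The median log2 fold change over all tested genes was 0.04, and 55.1% of genes were above 0 and 44.9% below.

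**Figure D2:**
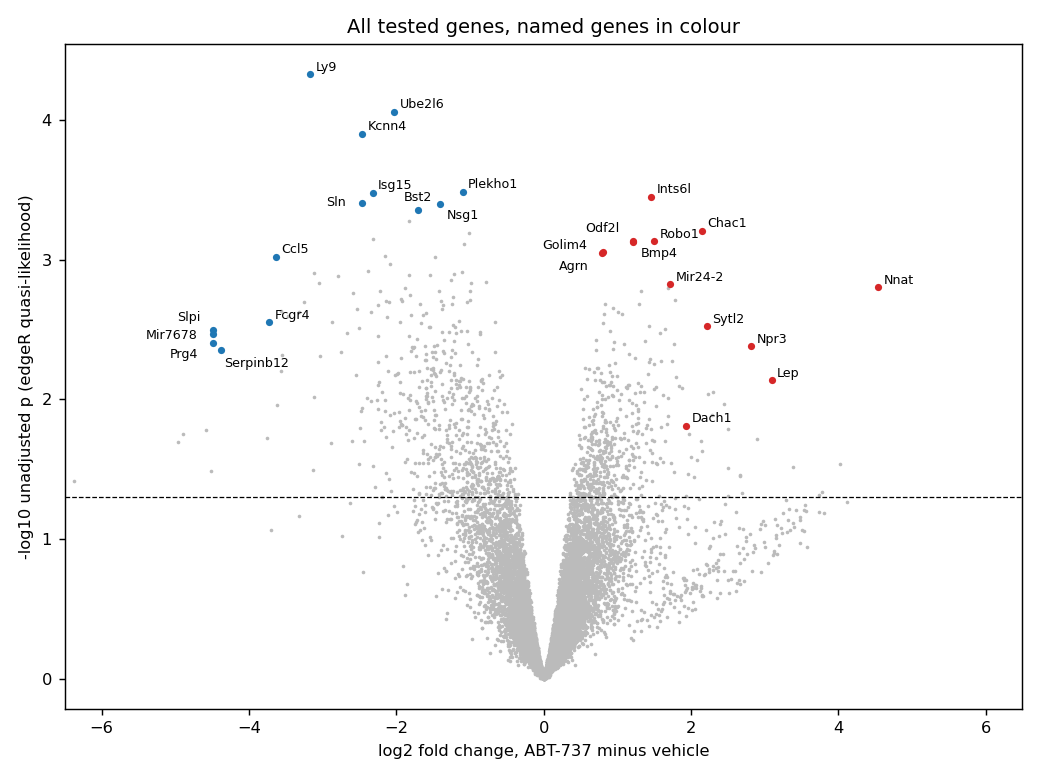
Log2 fold change of ABT-737 over vehicle against -log10 of the unadjusted p from edgeR for 14224 genes, with genes named by rule in colour and a dashed line at p 0.05. The lower side reaches smaller p-values, led by Ly9, Ube2l6 and Kcnn4, and the right arm below the dashed line reaches log2 fold changes over 3 without passing p 0.05.

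Of the 8 genes lower with ABT-737 with the smallest p, Isg15 and Bst2 belonged to the list of interferon-stimulated genes, and Ube2l6, which is not in that list, acts with Isg15. Ube2l6, the enzyme that conjugates the ubiquitin-like protein ISG15 to its targets, stood at 40.9, 44.1 and 62.3 CPM in the vehicle mice and at 9.34, 10.6 and 16.2 CPM in the ABT-737 mice. Every ABT-737 mouse was below every vehicle mouse, 4.09-fold lower on average (log2 fold change -2.03 ± 0.312 SE, edgeR adjusted p = 0.475). Isg15, the gene of that ubiquitin-like protein, stood at 22.9, 30.3 and 66.5 CPM against 8.3, 9.01 and 6.7 CPM. The groups were apart here too, with vehicle mouse 5 highest, and the difference was -2.32 ± 0.425 on the log2 scale (adjusted p = 0.475), or -1.73 without that mouse. Bst2, the gene of tetherin, which holds budding virus at the cell surface, stood at 72.5, 77.9 and 118 CPM against 30.1, 14.9 and 37.2 CPM. Its difference was -1.70 ± 0.324 (adjusted p = 0.475). In young skin the same genes averaged 11.9, 5.16 and 16.3 CPM. In the table, Isg15 spans chr4:156197424-156200818 on the minus strand, Ube2l6 chr2:84806229-84811234 on the plus strand and Bst2 chr8:71533805-71537331 on the minus strand, in mm10 and mostly extended past the 3′ end. The extended interval of Isg15 reaches the start of Agrn on the same strand, and that of Ube2l6 meets Smtnl1 on the other strand, whose log2 fold change was -0.34.

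The promoters of interferon-stimulated genes often hold the core of the interferon-stimulated response element, searched here on either strand as GAAA or GGAA followed by 2 bases of any kind and GAAA, with overlapping matches allowed. Of the 31 tested genes of that list, 23 had a promoter in the RefSeq table of GRCm38.p6 (250 bases before to 50 after the start site), and 17 of these (73.9%) held a core. Among 27025 promoters of the same length the share was 6.04%, and among those of 9500 tested genes it was 5.31%. The share was 4 of 16 (25%) for MHC class I and immunoproteasome genes and 0 of 5 for MHC class II genes, where CCAAT on either strand was found in 12 of 16 (75%) and 4 of 5 (80%), against 37.9% of all promoters. A match of letters describes the window and is not a measured binding site. Printed here, 5′ to 3′ on the gene's strand, are the windows of Isg15 and Bst2, which led the list, and of Cxcl10, a chemokine gene that the study names, with the matched letters in capitals.
Isg15 (chr4:156200769-156201068, minus strand): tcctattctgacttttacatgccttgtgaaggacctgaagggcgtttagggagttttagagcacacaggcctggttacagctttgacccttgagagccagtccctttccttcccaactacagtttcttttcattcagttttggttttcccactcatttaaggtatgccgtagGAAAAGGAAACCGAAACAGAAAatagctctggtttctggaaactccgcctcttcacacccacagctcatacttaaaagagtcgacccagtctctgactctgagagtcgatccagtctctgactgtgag
Bst2 (chr8:71537423-71537722, minus strand): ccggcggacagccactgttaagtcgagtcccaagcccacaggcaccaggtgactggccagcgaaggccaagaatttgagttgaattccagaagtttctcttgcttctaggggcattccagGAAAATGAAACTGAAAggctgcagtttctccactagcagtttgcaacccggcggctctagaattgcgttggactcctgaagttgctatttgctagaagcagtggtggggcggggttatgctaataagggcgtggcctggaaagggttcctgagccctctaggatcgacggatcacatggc
Cxcl10 (chr5:92348840-92349139, minus strand): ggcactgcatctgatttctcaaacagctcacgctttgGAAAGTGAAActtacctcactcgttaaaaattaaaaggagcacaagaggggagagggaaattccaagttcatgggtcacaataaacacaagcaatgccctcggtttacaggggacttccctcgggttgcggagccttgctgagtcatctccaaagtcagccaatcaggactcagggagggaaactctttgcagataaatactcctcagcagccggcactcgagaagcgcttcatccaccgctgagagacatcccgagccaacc
The matched stretch began 78 bases before the start site in Isg15, 130 in Bst2 and 213 in Cxcl10.

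All 31 tested interferon-stimulated genes were lower with ABT-737 (44.9% of all tested genes), 24 of them at an unadjusted p under 0.05 (4.57% of all tested genes were lower at that level) and 17 with groups that did not overlap (5.81% of all tested genes). Their median log2 fold change was -1.56, and 0 passed the adjusted threshold. The chemokine gene Cxcl10, whose promoter is printed above, stood at 8.79, 3.2 and 48.0 CPM against 1.56, 2.74 and 7.92 CPM, and Cxcl9 at 10.1, 3.2 and 35.6 CPM against 4.93, 1.57 and 7.62 CPM. The groups overlapped for both, and the log2 fold changes of -2.31 and -1.78 became -0.54 and -0.45 without vehicle mouse 5. Without that mouse the list's median was -0.87, with 29 of 30 genes lower and 12 lower at an unadjusted p under 0.05. The genes of interferons were hardly counted, with 0 to 3 reads of Ifng in each of the 6 mice and 0 of Ifnb1. Ifitm3, which blocks virus entry, was at 210.5, 263 and 404 CPM against 138, 85.8 and 162 CPM (-1.19 ± 0.353, adjusted p = 0.475 with edgeR). Irf9, a subunit of the factor that binds the response element, was at 77.3, 71.5 and 70.3 CPM against 61.2, 34.5 and 58.2 CPM (-0.51 ± 0.230, adjusted p = 0.635).

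The summed share of leukocyte genes was lower in each ABT-737 mouse than in each vehicle mouse. All 17 tested pan-leukocyte genes were lower, 14 at an unadjusted p under 0.05 and 14 without overlap (4.57% and 5.81% of all tested genes), with a median of -1.47. All 22 tested macrophage and monocyte genes were lower, 19 at an unadjusted p under 0.05 and 15 without overlap, with a median of -1.55. Laptm5, a lysosomal membrane protein of blood cells, stood at 125, 190.4 and 252 CPM in the vehicle mice and 73.9, 46.6 and 73.7 CPM in the ABT-737 mice (-1.54 ± 0.342). Lyz2, the lysozyme of macrophages, stood at 505, 1051 and 1313 CPM against 369, 183 and 389 CPM (-1.61 ± 0.519). C1qa, a chain of complement C1q made by macrophages, stood at 332, 611 and 762 CPM against 216, 130.1 and 263 CPM (-1.49 ± 0.428). In each of these the groups were apart, with vehicle mouse 5 highest and ABT-737 mouse 4 lowest. The adjusted p was 0.475 for Laptm5 and C1qa and 0.487 for Lyz2 with edgeR. Without vehicle mouse 5 the medians were -1.04 and -1.16, every tested gene of both lists was still lower, and 7 of 17 and 4 of 22 were lower at an unadjusted p under 0.05.

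The ratio of the summed interferon-stimulated genes to the pan-leukocyte sum was 0.839, 0.608 and 0.734 in vehicle mice 3, 4 and 5 and 0.928, 0.908 and 0.746 in ABT-737 mice 3, 4 and 5. The vehicle range therefore met that of the treated mice. For macrophage genes the ratio was 1.5, 1.79 and 1.55 against 1.52, 1.65 and 1.66, also with overlap. For MHC class I and immunoproteasome genes, which most cell types express, it was 3.11, 2.55 and 1.77 against 5.23, 4.58 and 3.59, higher in each ABT-737 mouse. The ratio was also higher in each ABT-737 mouse for chemokine ligands, at 0.962, 1.44 and 0.729 against 1.9, 2.73 and 1.65. For blood endothelial genes it was 0.322, 0.235 and 0.186 against 0.395, 0.671 and 0.323, apart by little. The other lists set against that sum overlapped. The level of the MHC class I list was itself lower with ABT-737, with all 18 tested genes lower and a median of -0.59. An unadjusted p under 0.05 was reached by 6 (4.57% of all tested genes), and 7 were without overlap (5.81%). The part of leukocyte content in the interferon-stimulated level was not tested.

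**Figure D3:**
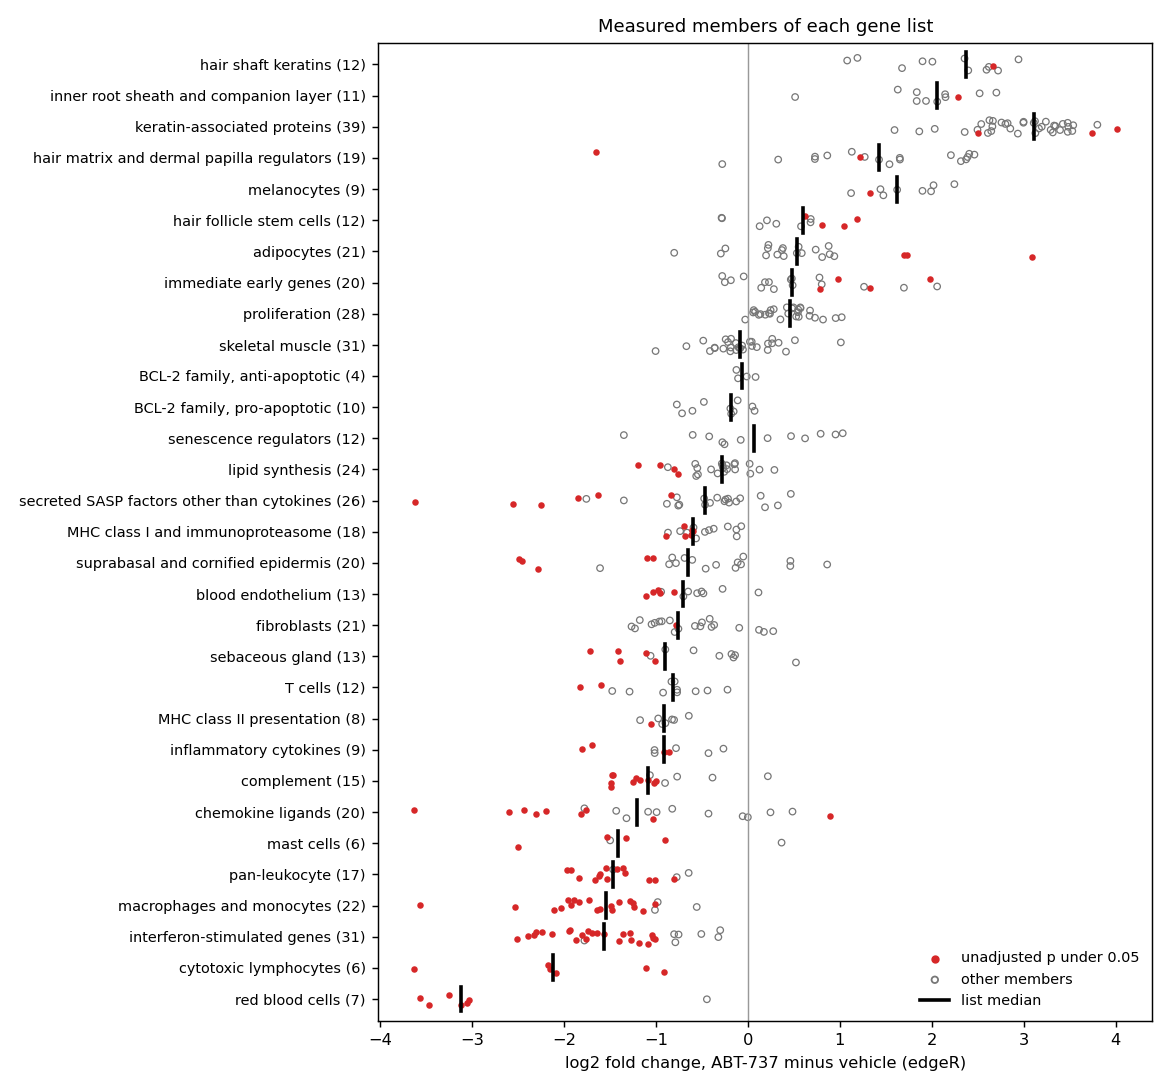
Log2 fold change of ABT-737 over vehicle for every tested member of 31 gene lists, with the number of members in brackets, red points for an unadjusted p under 0.05 and a black bar at the list median. Hair follicle lists are at the right with few red points, and leukocyte, interferon-stimulated, cytotoxic and red cell lists are at the left.

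Receptors and regulators of myeloid cells were among these genes. Fcgr4, a receptor for IgG on monocytes and macrophages, stood at 10.5, 7.12 and 37.0 CPM against 0.519, 0.783 and 2.74 CPM (-3.73 ± 0.854). Fcgr1, the high-affinity IgG receptor, stood at 17.1, 21.4 and 75.9 CPM against 5.97, 4.31 and 9.45 CPM (-2.53 ± 0.611). Irf8, a transcription factor of monocytes and dendritic cells, stood at 26.8, 19.2 and 42.5 CPM against 9.6, 8.23 and 16.2 CPM (-1.38 ± 0.354). All 3 were without overlap, which was a condition for choosing Fcgr4, and the edgeR adjusted p was 0.475 for each. Without vehicle mouse 5 Fcgr4 was -2.66 and Fcgr1 was -1.54. All 8 tested MHC class II genes were lower, with a median of -0.91. Of them 7 were without overlap (5.81% of all tested genes), but 1 at an unadjusted p under 0.05 (4.57%). H2-Aa, a chain of the class II molecule, stood at 1843, 1860.3 and 1363 CPM against 1097, 419 and 1139 CPM. Vehicle mouse 5 was the lowest vehicle mouse for H2-Aa, unlike for the genes above. H2-DMb1, which helps to load peptide and shares an interval with H2-DMb2, was at 83.9, 94.7 and 65.7 CPM against 43.6, 26.2 and 46.9 CPM (-1.06 ± 0.327).

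Fewer of the lymphocyte genes had enough reads to be tested. The filter on low counts keeps a gene that is well counted in a single group, so a sparse gene can be tested through its higher group alone. For sparse lists, here and below, the direction and overlap of the tested members are therefore not independent of the filter. Of 27 listed T cell genes 12 could be tested, and all 12 were lower, with a median of -0.81. Only 2 had an unadjusted p under 0.05 (4.57% of all tested genes), and 4 were without overlap (5.81%). Trbc2, a constant region of the T cell receptor, was at 65.5, 66.2 and 103 CPM against 58.4, 49.0 and 51.2 CPM, and Cd3d at 4.39, 6.05 and 8.0 CPM against 2.08, 0.783 and 3.05 CPM. Of 22 cytotoxic lymphocyte genes 6 could be tested, and all 6 were lower at an unadjusted p under 0.05 (4.57% of all tested genes). Of them 5 were without overlap (5.81%), and the median of the 6 was -2.12. Without vehicle mouse 5 that median was -1.46, with 3 lower at an unadjusted p under 0.05. Ccl5, a chemokine stored by cytotoxic cells, stood at 24.6, 29.9 and 173 CPM against 5.19, 3.13 and 9.75 CPM. Its log2 fold change was -3.64 ± 0.772 (edgeR adjusted p = 0.475) and -2.16 without vehicle mouse 5. Il2rb, the beta chain of the receptors for IL-2 and IL-15, stood at 5.27, 7.47 and 14.6 CPM against 2.08, 1.57 and 2.44 CPM, and Nkg7, a granule protein, at 10.1, 10.3 and 35.6 CPM against 5.19, 1.18 and 5.79 CPM. Nkg7 was -2.17, or -1.29 without vehicle mouse 5. Prf1 itself was -0.91 ± 0.348 with overlap. The granzyme genes Gzma and Gzmb had 0 to 8 and 0 to 31 reads in the 6 mice and were not tested.

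Ly9, a SLAM family receptor of lymphocytes and macrophages, had the smallest p of all genes. It stood at 8.35, 12.1 and 14.1 CPM in the vehicle mice and at 1.04, 1.18 and 1.52 CPM in the ABT-737 mice, from 4, 3 and 5 reads. The treated mice were 9.24-fold lower (-3.17 ± 0.452, edgeR adjusted p = 0.475), and the log2 fold change was below 0 in each of the alternatives that tested it. Kcnn4, a calcium-activated potassium channel of lymphocytes and red cells, stood at 12.3, 8.54 and 17.1 CPM against 2.08, 1.96 and 2.74 CPM (-2.46 ± 0.397). Plekho1, a plasma membrane protein that binds casein kinase 2, was at 36.9, 31.3 and 38.9 CPM against 14.8, 15.7 and 19.5 CPM (-1.10 ± 0.201). Nsg1, a protein of endosomes in neurons, was at 25.9, 34.9 and 42.2 CPM against 13.5, 11 and 14.3 CPM (-1.41 ± 0.264). It overlaps Stx18 on the other strand. Sln, the sarcolipin that restrains the calcium pump of muscle, was at 54.5, 127 and 109.5 CPM against 27.2, 8.23 and 16.8 CPM (-2.46 ± 0.461). Sln was apart between the groups although the muscle list as a whole was not.

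**Figure D4:**
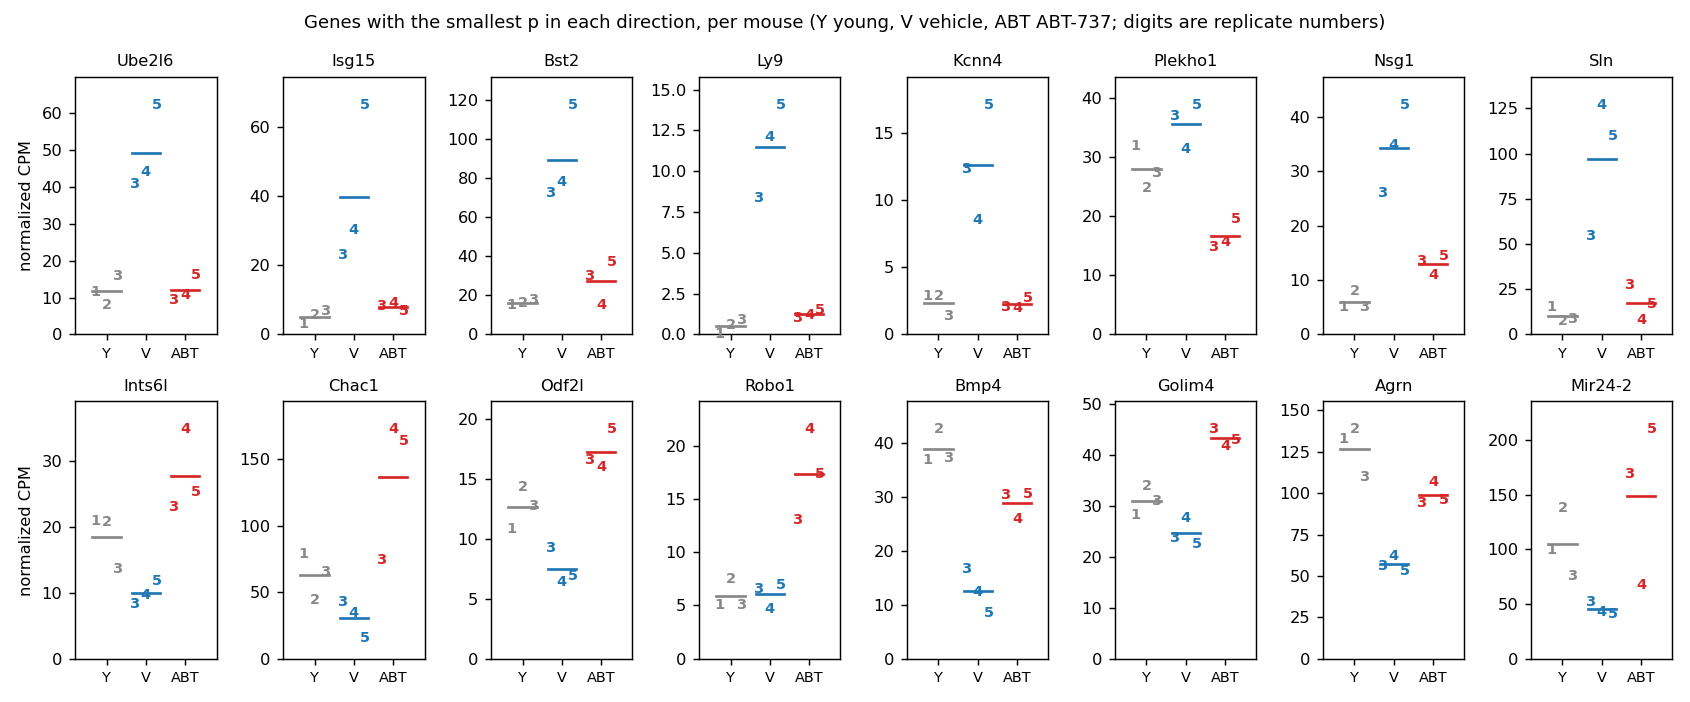
Normalized CPM per mouse for the 8 genes with the smallest p lower with ABT-737 (top row) and the 8 higher (bottom row), on axes that start at 0. Digits are replicate numbers and bars are group means of 3 mice for young (Y), vehicle (V) and ABT-737. In each panel the vehicle and ABT-737 mice do not overlap, which choice by small p makes likely. Vehicle mouse 5 is highest for 7 of the 8 genes of the top row, all but Sln.

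Several of the largest differences among genes lower with ABT-737 rested in part on vehicle mouse 5. Slpi, a protease inhibitor of inflamed epithelium, stood at 11, 9.61 and 137 CPM against 0.519, 2.35 and 4.27 CPM, and Mir7678, listed within it, holds nearly the same reads. Prg4, the lubricin of joint surfaces, stood at 4.39, 11.4 and 112 CPM against 1.04, 1.96 and 2.74 CPM. Serpinb12, an epithelial protease inhibitor, stood at 6.15, 11.4 and 163 CPM against 1.04, 3.92 and 3.96 CPM. No overlap between the groups was a condition for choosing these genes. The log2 fold changes of -4.49 ± 1.15, -4.48 ± 1.19 and -4.38 ± 1.18 became -2.12, -2.05 and -1.60 without that mouse. Flg, the filaggrin of cornified epidermis, was at 472, 222 and 2467 CPM against 145, 199 and 231 CPM (-2.46 ± 0.789, and -0.86 without vehicle mouse 5). Among 20 suprabasal and cornified genes 17 were lower, with a median of -0.65. Of them 5 were at an unadjusted p under 0.05 (4.57% of all tested genes), and 0 were at that level without vehicle mouse 5. Krt10, the main keratin of the suprabasal layers, was at 5009, 7506 and 9539 CPM against 5978, 2666 and 4181 CPM, and Lor, the loricrin of the cornified envelope, at 3810.2, 5248 and 5519 CPM against 3670.2, 2609 and 2766 CPM. Basal keratinocyte genes had a median of -0.17 over 10 genes, 4 of them higher. Krt14 was at 3565, 2758 and 11072 CPM against 3104, 2386 and 3742 CPM (-0.91, or -0.04 without vehicle mouse 5). Trp63, the master regulator of basal cells, was slightly higher at 25.9, 27.0 and 25.6 CPM with ABT-737 against 19.3, 21.0 and 15.4 CPM (0.50 ± 0.220).

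Genes of red blood cells, platelets and vessels were lower as well. Hbb-bs, a beta globin, stood at 2547, 8352 and 742 CPM in the vehicle mice and 588, 191 and 442 CPM in the ABT-737 mice (-3.25 ± 0.772), and Hba-a1, an alpha globin, at 522, 1031 and 105 CPM against 66.9, 36.8 and 86.2 CPM (-3.12 ± 0.690). Vehicle mouse 4 was highest and vehicle mouse 5 close to the treated mice, and the globin genes have near-identical copies between which reads may be split. All 7 tested red cell genes were lower, 6 at an unadjusted p under 0.05 (4.57% of all tested genes). Their median was -3.12, or -2.03 without vehicle mouse 4. Without that mouse Hbb-bs was -2.03 and Hba-a1 was -2.32. Of 11 platelet genes 4 were tested, all lower and without overlap (5.81% of all tested genes). Sparse members such as Gp9 could pass the filter on low counts through the vehicle mice alone. Gp9, a subunit of the platelet receptor for von Willebrand factor, was at 4.83, 8.19 and 4.14 CPM against 1.3, 0.392 and 0.914 CPM (-2.59 ± 0.545), and Pf4, the platelet chemokine CXCL4, at 144, 257 and 197 CPM against 131, 36.0 and 115 CPM. Of 13 blood endothelial genes 12 were lower, 5 at an unadjusted p under 0.05 (4.57% of all tested genes) and 6 without overlap (5.81%), with a median of -0.70. Pecam1, an adhesion molecule of endothelium, platelets and leukocytes, was at 64.6, 99.7 and 87.7 CPM against 47.7, 33.3 and 36.0 CPM (-1.10 ± 0.243), and Eng at 64.6, 83.6 and 113 CPM against 52.4, 32.9 and 49.4 CPM. Flt4, the receptor for VEGF-C on lymphatic vessels, was at 22.9, 13.5 and 23.7 CPM against 6.49, 3.92 and 11.3 CPM (-1.45 ± 0.387). The mice were perfused, and the blood left in each piece of skin is not given in the sources used here, so its part in these values was not tested.

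Mast cell genes were lower in 5 of 6 cases, with a median of -1.41. Lower at an unadjusted p under 0.05 were 4 (4.57% of all tested genes), and 2 were lower without overlap (5.81%). Hdc, which makes histamine, was at 4.39, 13.5 and 31.4 CPM against 2.34, 3.13 and 3.35 CPM (-2.50 ± 0.635, or -1.62 without vehicle mouse 5). The protease genes Mcpt4 and Tpsb2 overlapped between groups, with 36.5, 132 and 116 CPM against 52.7, 16.8 and 43.6 CPM for Mcpt4 and 20.2, 81.1 and 74.8 CPM against 31.9, 14.5 and 14.0 CPM for Tpsb2. Neutrophils could hardly be assessed. Of 15 listed genes 4 were tested, 3 of them lower and 1 higher. The higher one was Elane, at 469.7, 539 and 341 CPM against 604, 405 and 384 CPM (0.05), with overlap. The defining gene S100a9 had 983 reads in vehicle mouse 5 and 2 to 17 in the other 5. Lcn2, which binds bacterial siderophores, was -2.40 ± 0.744, or -0.91 without vehicle mouse 5, and Mmp9 was -1.64 ± 0.612 with overlap, or -1.02 without that mouse. The immunoglobulin gene Igkc was at 149, 984 and 112 CPM against 139, 281 and 157 CPM, high in vehicle mouse 4 alone. Its log2 fold change of -1.11 turned to 0.55 without that mouse.

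The 8 genes higher with ABT-737 with the smallest p were apart between the groups in every case, which choice by small p makes likely. Ints6l, related to a subunit of the Integrator complex, stood at 8.35, 9.61 and 11.9 CPM in the vehicle mice and 23.1, 34.9 and 25.3 CPM in the ABT-737 mice (1.46 ± 0.270, edgeR adjusted p = 0.475). Chac1, which degrades glutathione and is induced by the unfolded protein response, stood at 42.6, 34.2 and 16 CPM against 74.2, 173 and 164 CPM (2.15 ± 0.430, adjusted p = 0.475). Golim4, a Golgi membrane protein, was at 23.7, 27.8 and 22.6 CPM against 45.1, 41.9 and 43.0 CPM (0.81 ± 0.170). Its SD was 2.7 CPM in the vehicle and 1.65 CPM in the ABT-737 mice. Agrn, the basement membrane proteoglycan agrin, was at 55.8, 62.3 and 53.0 CPM against 93.9, 107 and 95.7 CPM (0.79 ± 0.167). Bmp4, a ligand that restrains hair follicle stem cells, was at 16.7, 12.5 and 8.55 CPM against 30.4, 25.9 and 30.5 CPM (1.22 ± 0.249). Odf2l, a protein of centrioles, was at 9.23, 6.41 and 6.9 CPM against 16.6, 16.1 and 19.2 CPM, and Robo1, a receptor for Slit ligands, at 6.59, 4.63 and 6.9 CPM against 13, 21.5 and 17.4 CPM. The position listed as Mir24-2 shares its interval with Gm26532 on the same strand, and their log2 fold changes were 1.72 and 1.69. Young skin averaged 18.4 CPM for Ints6l, 38.9 CPM for Bmp4 and 127 CPM for Agrn.

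The largest differences chosen among genes higher with ABT-737 were highest in ABT-737 mouse 3, or in mice 4 and 5. Nnat, the imprinted neuronatin gene, stood at 1.32, 5.69 and 0.828 CPM against 142, 25.1 and 14.3 CPM (4.54 ± 1.04, and 2.90 without ABT-737 mouse 3). Lep, the leptin of adipocytes, stood at 0.439, 2.14 and 0.552 CPM against 17.9, 5.48 and 3.96 CPM (3.10 ± 0.912, and 2.12 without that mouse). Npr3, the clearance receptor of natriuretic peptides, stood at 1.76, 1.07 and 1.38 CPM against 21.3, 4.31 and 3.96 CPM (2.81 ± 0.751, and 1.54). Each was highest in ABT-737 mouse 3, which also had the highest share of adipocyte genes. Sytl2, of vesicle transport, and the transcription cofactor Dach1 were highest in ABT-737 mice 4 and 5 instead, with 5.27, 1.78 and 2.76 against 5.71, 24.3 and 15.5 CPM for Sytl2 and 2.2, 1.42 and 1.66 against 3.11, 10.2 and 7.31 CPM for Dach1. These are the mice with the highest share of hair follicle genes. Of 21 adipocyte genes 18 were higher, 3 at an unadjusted p under 0.05 (3.4% of all tested genes were higher at that level), with a median of 0.53 that became -0.33 without ABT-737 mouse 3. Without it Car3 was -0.38 and Fabp4 0.30 in place of 0.94 and 0.89. Car3 and Fabp4, abundant in adipocytes, had 4726 and 1422 CPM in that mouse and at most 1855 and 883 CPM in the other 5.

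Hair follicle genes were higher in median but split by mouse rather than by group. Of 81 tested genes of the hair shaft, inner root sheath, keratin-associated proteins and hair matrix, 79 were higher, with a median of 2.50. Higher at an unadjusted p under 0.05 were 6 (3.4% of all tested genes), and 1 was higher without overlap (5.74%). Without vehicle mouse 3 the median was 5.17. Krt71, a keratin of the inner root sheath, stood at 3739, 15.3 and 319 CPM against 10.6, 8723 and 6874 CPM (1.94 ± 2.01, edgeR adjusted p = 0.857). Krt83 of the hair shaft was at 693, 2.85 and 50.5 CPM against 1.3, 2142 and 1785 CPM, and Krtap8-1 at 859.9, 1.07 and 64.6 CPM against 3.37, 2424 and 3223 CPM. The same 3 mice, vehicle mouse 3 and ABT-737 mice 4 and 5, were high in each. Krt75, of the companion layer, was less split, with 214, 63.7 and 41.4 CPM against 122, 865 and 568 CPM (2.29 ± 0.749). The pigment gene Pmel, at 103, 1.07 and 11 CPM against 1.04, 244 and 107 CPM, was high in the same 3 mice, whereas Mitf, a transcription factor of melanocytes and other cells, was higher in each ABT-737 mouse at 9.08, 17.6 and 15.5 CPM against 5.71, 6.05 and 4.97 CPM (1.33 ± 0.306, adjusted p = 0.475). Of 12 hair follicle stem cell genes 10 were higher, 4 at an unadjusted p under 0.05 (3.4% of all tested genes), with a median of 0.60. Their summed share was 0.0624%, 0.0499% and 0.0491% in the vehicle and 0.0733%, 0.0662% and 0.0751% in the ABT-737 mice, without overlap. Bmp6, which keeps stem cells at rest, was at 2.64, 6.76 and 4.41 CPM against 11.7, 7.05 and 10.1 CPM, and Sox9 at 174, 95.7 and 94.1 CPM against 132, 246 and 205 CPM. With the hair follicle score as a covariate, a fit chosen after seeing the data, the leukocyte and interferon-stimulated medians were -1.34 and -1.51.

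**Figure D5:**
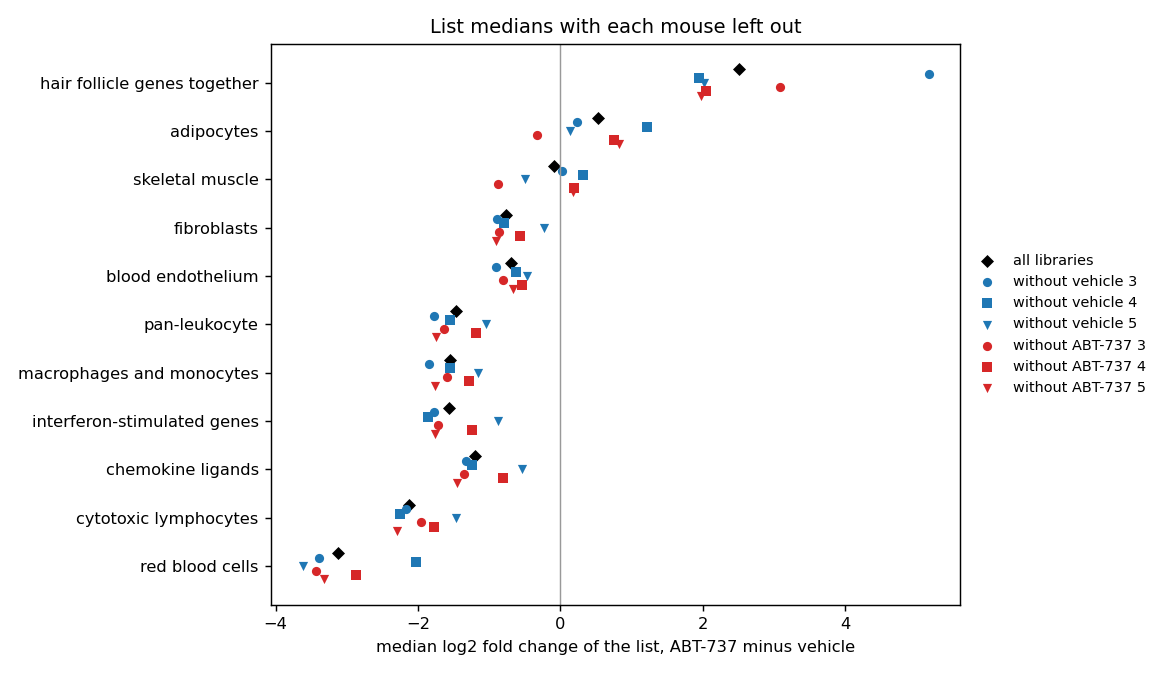
Median log2 fold change of 11 gene lists with all libraries (black) and with each vehicle (blue) or ABT-737 (red) mouse left out, by marker shape. The leukocyte, interferon-stimulated, cytotoxic and red cell medians stay below 0 without any 1 mouse, the adipocyte and muscle medians cross 0, and the hair follicle median runs from 1.94 to 5.17.

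Few or none of the muscle and fibroblast genes had a small p. Of 31 muscle genes 12 were higher and 19 lower, 0 at an unadjusted p under 0.05, with a median of -0.09, and Ckm, the creatine kinase of muscle, stood at 6066, 7243 and 1306 CPM against 7876, 2399 and 2600.4 CPM. Of 21 fibroblast genes 18 were lower, with a median of -0.76, or -0.23 without vehicle mouse 5. At an unadjusted p under 0.05, 1 was lower, a share close to the 4.57% of all tested genes. Without overlap, 4 were lower (5.81% of all tested genes). The summed share of fibroblast genes, given above, overlapped between the groups. Col1a1, the main collagen of dermis, was at 3269, 1951 and 5044 CPM against 5564, 1699.6 and 4322 CPM, and Fbn1, the fibrillin of elastic fibres, at 55.8, 80.1 and 105 CPM against 51.4, 34.1 and 54.5 CPM. Of 13 sebaceous gland genes 12 were lower, 5 at an unadjusted p under 0.05 (4.57% of all tested genes), with a median of -0.90. Without ABT-737 mouse 4 the median was -0.37, with 0 at that level. Fa2h, which hydroxylates fatty acids of sebum, was at 433, 211 and 545 CPM against 196, 44.3 and 206 CPM (-1.41 ± 0.594), and Elovl3 at 106, 34.5 and 209 CPM against 29.3, 44.7 and 60.0 CPM (-1.39, or -0.66 without vehicle mouse 5). Of 24 lipid synthesis genes 20 were lower, with a median of -0.28. Lower at an unadjusted p under 0.05 were 4 (4.57% of all tested genes), and 8 were lower without overlap (5.81%). Fatty acid oxidation genes had a median of -0.02 over 24 and circadian clock genes -0.07 over 17, of which Per3 was higher at 11.4, 8.62 and 11.6 against 7.47, 5.69 and 4.69 CPM.

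The drug's targets and the genes of senescence were compared next. The 4 tested anti-apoptotic BCL-2 family genes lay between -0.12 and 0.08. Bcl2 was at 34.3, 33.1 and 31.7 CPM in the vehicle mice and 29.1, 27.8 and 35.0 CPM in the ABT-737 mice, Bcl2l1, the gene of BCL-XL, at 111, 104 and 78.3 against 74.2, 113 and 104 CPM, and Bcl2l2, the gene of BCL-W, at 23.7, 42.7 and 30.6 against 40.7, 27.0 and 35.0 CPM. Mcl1, whose product ABT-737 does not bind well, was at 176, 233 and 248 against 232, 149.6 and 221 CPM. All 4 overlapped. Of 10 pro-apoptotic genes 8 were lower, 0 at an unadjusted p under 0.05, with a median of -0.19, from Bik at -0.77 ± 0.379 upward. The 12 tested senescence regulators were split 6 to 6 with a median of 0.07. Cdkn1a, the gene of p21, was at 702, 552 and 717 CPM against 449, 922 and 916 CPM (0.21 ± 0.286), and Cdkn2b, the gene of p15, at 21.5, 24.9 and 30.9 CPM against 19.5, 25.9 and 28.3 CPM (-0.08 ± 0.258).

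Cdkn2a, the gene of p16 and p19ARF and a common marker of senescent cells, had too few reads for the main test. It had 11, 8 and 24 reads in the vehicle mice, 2, 1 and 3 in the ABT-737 mice and 1, 0 and 0 in the young mice. In CPM these were 4.83, 2.85 and 6.62 against 0.519, 0.392 and 0.914, and each ABT-737 mouse was below each vehicle mouse. The vehicle level was 7.97 times the ABT-737 level from 43 and 6 reads in all, with an exact 95% interval of 3.38 to 22.9 that covers counting error only. An exact two-sided permutation test of the CPM gave p = 0.1, the smallest that 3 against 3 mice allow. With no filter on low counts edgeR gave -2.88 ± 0.745 and an adjusted p of 0.131. With 1 to 3 reads in each ABT-737 mouse, the size of the difference is loosely bounded by these counts.

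Secreted factors varied by gene. Of 20 tested chemokine ligands 17 were lower, with a median of -1.20, or -0.54 without vehicle mouse 5. Lower at an unadjusted p under 0.05 were 8 (4.57% of all tested genes), and 4 were lower without overlap (5.81%). Ccl6, made by myeloid cells, was at 215, 745 and 427 CPM against 166, 87.0 and 139.9 CPM (-1.82 ± 0.559). Ccl2, which draws monocytes, was at 9.67, 6.41 and 43.9 CPM against 3.89, 1.57 and 18.6 CPM, and its -1.32 ± 0.890 became 0.02 without vehicle mouse 5. Cxcl14, made by keratinocytes and fibroblasts, was higher at 335, 694 and 588 CPM against 292, 312 and 264 CPM (0.90 ± 0.268). All 9 tested cytokine genes were lower, 4 at an unadjusted p under 0.05 (4.57% of all tested genes), with a median of -0.92. Tgfb1 was at 61.1, 50.2 and 94.6 CPM against 25.9, 49.7 and 38.1 CPM, whereas Il33 and Il1b, at 191 and 88.0 CPM in vehicle mouse 5, were -0.26 and -0.03 without it. Il1rn was at 24.6, 29.5 and 72.0 against 30.4, 31.7 and 32.3 CPM. Il6 had 0 reads in all 6 mice, Il10 had 0 to 9 and Tnf 2 to 42, and these were not tested. Of 26 other secreted factors of senescent cells 22 were lower, with a median of -0.47. At an unadjusted p under 0.05, 6 were lower (4.57% of all tested genes). Among them was Vcam1, an adhesion molecule of activated endothelium, at 10.1, 24.6 and 16 CPM against 1.04, 3.92 and 5.79 CPM (-2.25 ± 0.539, edgeR adjusted p = 0.475). Of 15 tested complement genes 14 were lower, 10 at an unadjusted p under 0.05 (4.57% of all tested genes), with a median of -1.08. C1qb stood at 304, 606 and 788 CPM against 187, 134 and 288 CPM.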

How the data were processed

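RNA from skin was made into bulk MARS-seq libraries, which read the 3′ ends of transcripts, and the authors deposited whole-number counts per gene symbol without normalization. The submitters' processing notes name bcl2fastq, HISAT 0.1.5, HOMER and mm10. Use of molecule barcodes and of strand in counting is not given in the sources used here, so counting intervals cover counting error only. Of 52316 transcripts found in GENCODE M21, 81.9% had their 3′ end extended by 2000 bases, so neighbouring genes can share reads. Of the tested genes named here by rule, Elane left out, 24 overlapped another tested gene, 12 on the same strand. The table has 26 symbols that read as dates, which were not named, and 57 tested genes in 21 sets of identical counts. Library totals were 1493411 to 2271560 counts in young, 2246887 to 3569858 in vehicle and 2485280 to 3842808 in ABT-737 mice. No 2 libraries of the same group were alike within sampling noise.

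The count model was edgeR 4.0.16 (R 4.3.3), with its expression filter by group, TMM scaling and the quasi-likelihood test on all 9 skin libraries, so that the young mice add to the estimate of the spread. The biological coefficient of variation was 34.9%. Adjusted p-values are Benjamini-Hochberg. P-values measure the spread between mice of the same group, young mice included, and the series' text calls these mice biological replicates. With the young mice left out of the fit, genes at an unadjusted p under 0.05 numbered 289 higher and 605 lower, against 484 and 650. In simulated counts from the same means and library sizes 4.76% of genes changed 2-fold, 58.8% changed 4-fold and 95.7% changed 8-fold were recovered. Of the calls in that simulation 9.92% were false. The changed genes were drawn from the better-counted genes only, and swings of tissue composition shared by many genes were not simulated. Gene lists and the comparison were chosen with earlier results of these data known and written from general knowledge. Each is described by its tested members, without a set test. Markers of other tissues, genes that set vehicle mouse 5 apart, genes below the filter other than those the study names and overlapping neighbours were named after their values were seen. The other genes were named by rule: the 8 higher and 8 lower with the smallest p, the 6 and 6 with the largest fold change among genes with unadjusted p under 0.05, no overlap and over 3 counts in each library of the higher group, for each list the 3 most abundant members and the one with the smallest p, and 11 genes the study names. Not all genes that the rule gave are printed, and the choice among them followed no stated rule. Shares of lists are summed counts over the library total. Alternatives were DESeq2 1.42.0, its size factors, TMM without hair, muscle and fat genes, other count filters, a fit of the 6 old libraries alone, a replicate block and each library left out. Covariates for hair follicle and muscle scores were added after seeing the data.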

Additional observations from a re-analysis of the deposited data

How the results depend on the processing

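The count of called genes was 0 in the main fit and with DESeq2's size factors, TMM without tissue genes, at least 10 counts in every library, 2 groups in the fit, the replicate block and each of the 9 libraries left out (0 to 0). DESeq2 called 60 genes, no filter 32, the hair follicle covariate 1 (Nnat) and the muscle covariate 2 (Slpi and Mir7678). Genes higher at an unadjusted p under 0.05 numbered 484, or 825 with no filter, 289 with 2 groups in the fit and 143 with the replicate block, and genes lower 650, or 1169 with no filter and 377 with at least 10 counts. With 1 library left out they ran from 281 (without ABT-737 mouse 5) to 1263 (without ABT-737 mouse 3) higher and from 400 (without ABT-737 mouse 4) to 1016 (without ABT-737 mouse 3) lower, with 417 lower without vehicle mouse 5. Same-numbered mice did not all deviate together (r of deviations -0.574, -0.577 and 0.276), so the main fit did not pair them. With 3 mice per group that differed greatly in tissue composition, these r values cannot exclude a pairing by number. List medians with 1 library left out ran from 1.94 to 5.17 for hair follicle, -0.33 to 1.22 for adipocyte, -0.87 to 0.32 for muscle, -1.78 to -1.04 for pan-leukocyte and -1.86 to -0.87 for interferon-stimulated genes. With the hair follicle covariate Krt83 (-1.02), Krt71 (-1.17), Krtap8-1 (-0.52), Pmel (-0.69) and Cdkn1a (-0.08) changed sign, and with the muscle covariate Ckm (0.03) did. With 1 library left out, sign changes arose for Car3 (-0.38 to 1.5), Ckm (-0.96 to 0.21), Col1a1 (-0.18 to 0.56), Igkc (-1.56 to 0.55), Il1rn (-0.70 to 0.21), Mcl1 (-0.27 to 0.05), Bcl2l1 (-0.15 to 0.15), Bcl2l2 (-0.10 to 0.32), Cdkn2b (-0.20 to 0.07) and Ccl2 (-2.82 to 0.02). The cause was not tested.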

Other observations

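Immediate early genes, which switch on within minutes of a stimulus or of tissue handling, were higher in 16 of 20 cases. Their median log2 fold change was 0.48. Higher at an unadjusted p under 0.05 were 4 (3.4% of all tested genes), and 2 were higher without overlap (5.74%). Fos stood at 138, 263 and 59.3 CPM in vehicle mice 3, 4 and 5 and at 675, 71.7 and 745 CPM in ABT-737 mice 3, 4 and 5, so that ABT-737 mice 3 and 5 were high and mouse 4 was among the vehicle values (1.70 ± 0.792, edgeR adjusted p = 0.642). Junb followed at 251, 256 and 344 CPM against 370.3, 281 and 541 CPM. Btg2, an antiproliferative gene, was at 38.2, 64.1 and 45.8 CPM against 77.3, 64.2 and 149.9 CPM, with the groups apart by little. The handling time of each sample is not given in the sources used here, and its part was not tested.

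Proliferation genes were higher in 27 of 28 cases with a median of 0.46, yet 0 had an unadjusted p under 0.05. Their summed share of counts was 0.0713%, 0.025% and 0.0782% in the vehicle mice and 0.0286%, 0.122% and 0.0829% in the ABT-737 mice. The same vehicle mouse 3 and ABT-737 mice 4 and 5 that held hair keratins were among the 4 higher mice. Vehicle mouse 5, low in hair follicle genes, was the other and stood above vehicle mouse 3. The median was -0.05 without ABT-737 mouse 4. It was -0.23 with the hair follicle score as a covariate, a fit chosen after seeing the data. The part of hair follicle content in the proliferation level was not tested.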
